A study of Mus musculus with 12 samples.

Results

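The comparison described here sets 3 arrays of primary mouse hepatocytes taken 2 h after addition of TGF-β1 against 3 arrays of untreated hepatocytes, 6 of the 12 arrays of a short time series. Its arrays were chosen by their titles, which also carry a replicate number from 1 to 3, and each 2 h array was set against the untreated array with the same number. Hepatocytes of male C57BL/6 mice were freed from the liver with collagenase, cultured on collagen in HepatoZYME-SFM, a serum-free medium, and given 1 ng/ml recombinant human TGF-β1. All dishes received new medium an hour before stimulation, so that the untreated cells, taken at the start, had also spent less time in that medium than the 2 h cells. The effect of TGF-β1 and that of the later harvest cannot be told apart. The study names the replicates biological, and the labels do not say which cultures or animals they came from, so the p-values measure the spread between these arrays.

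TGF-β1 binds a pair of serine/threonine kinase receptors, TGFBR2 and TGFBR1, and the activated TGFBR1 phosphorylates SMAD2 and SMAD3. These join SMAD4, enter the nucleus and act on target genes together with other DNA-binding factors, while a related branch through SMAD1 and SMAD5 serves the bone morphogenetic proteins. Among the fastest targets are inhibitors of the pathway itself, such as the inhibitory SMADs and the SKI family of corepressors, and in hepatocytes TGF-β is known as a stop signal for growth, a trigger of apoptosis and a driver of fibrosis genes.

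SMAD3 and SMAD4 contact a short DNA element, CAGAC, and its palindrome GTCTAGAC, so 4 promoters are shown for genes described below. All 4 hold an element, so they do not stand for the SMAD targets as a whole. Lnx2 and Il22ra1 are not in the SMAD target lists used below. No promoter was available for Pmepa1, Skil, Id1, Sox9 or Ccn2. Smad6 is an inhibitory SMAD, Id3 a helix-loop-helix inhibitor, Lnx2 a ubiquitin ligase and Il22ra1 a subunit of the interleukin-22 receptor. Each runs 5′ to 3′ on the strand of its gene, from 250 bases before to 50 bases after the start in RefSeq (GRCm38.p6), with the elements found on either strand in capitals.
Smad6: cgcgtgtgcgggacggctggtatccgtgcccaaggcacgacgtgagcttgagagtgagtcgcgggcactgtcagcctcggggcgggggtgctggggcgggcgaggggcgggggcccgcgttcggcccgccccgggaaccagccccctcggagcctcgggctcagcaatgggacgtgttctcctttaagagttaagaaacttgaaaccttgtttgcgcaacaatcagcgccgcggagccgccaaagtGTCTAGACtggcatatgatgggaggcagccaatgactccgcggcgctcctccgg
Id3: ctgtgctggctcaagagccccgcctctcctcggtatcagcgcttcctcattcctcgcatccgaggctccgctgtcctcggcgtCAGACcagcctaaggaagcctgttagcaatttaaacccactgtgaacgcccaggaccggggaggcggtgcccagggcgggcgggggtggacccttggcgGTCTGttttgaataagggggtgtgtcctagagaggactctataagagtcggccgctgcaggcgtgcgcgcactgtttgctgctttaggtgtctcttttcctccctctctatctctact
Lnx2: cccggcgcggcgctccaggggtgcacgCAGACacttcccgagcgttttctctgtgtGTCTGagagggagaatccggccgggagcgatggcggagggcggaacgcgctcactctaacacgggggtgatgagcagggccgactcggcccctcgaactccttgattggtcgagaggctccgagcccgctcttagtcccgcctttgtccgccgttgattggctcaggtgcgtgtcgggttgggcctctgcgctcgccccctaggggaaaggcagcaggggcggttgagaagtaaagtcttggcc
Il22ra1: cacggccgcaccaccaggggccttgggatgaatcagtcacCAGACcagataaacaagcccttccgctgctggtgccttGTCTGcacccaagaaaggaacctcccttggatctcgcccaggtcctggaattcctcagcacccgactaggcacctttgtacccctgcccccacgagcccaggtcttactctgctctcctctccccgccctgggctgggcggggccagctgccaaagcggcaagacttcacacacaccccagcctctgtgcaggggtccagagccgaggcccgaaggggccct
The windows lie at chr9:64022010-64022309 (minus strand), chr4:136143572-136143871 (plus), chr5:147076523-147076822 (minus) and chr4:135727909-135728208 (plus). The palindrome of Smad6 begins 4 bases before the start, and it occurs in 70 of 32851 promoters of the table, 0.213%. CAGAC begins 167 and 68 bases before the start of Id3, 223 and 194 bases before that of Lnx2, and 210 and 172 bases before that of Il22ra1. At least 1 CAGAC stands in 49.6% of all promoters and at least 2 in 16.2%. The SMAD target lists used below have 55 measured genes, not all of them named here, and 37 have a promoter in the table. Of these 37, 15 hold CAGAC, 1 holds GTCTAGAC and 12 hold GGCGCC. The last is an element bound by SMAD1 and SMAD5, which 11.9% of all promoters hold. A gene was counted if any of its promoters in the table held the element, whereas the shares are per promoter. Counts and shares therefore cannot be compared directly. These matches describe the letters in the windows and show no binding.

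Values are log2 signals of RMA, in which 1 unit is a doubling, and 19938 genes had a probe set of their own. On the untreated arrays the hepatocyte markers were near the top of the scale, with a median over 9 measured genes of 13.67, and albumin (Alb) stood at a mean of 14.61. The 12 measured lymphocyte markers had a median of 5.26. It was 6.41 for 7 cholangiocyte markers, 6.56 for 3 red blood cell markers and 7.22 for 22 macrophage markers. For 14 stellate cell and 14 sinusoidal endothelial markers it was 7.35 and 7.51. Replicate 1 stood apart, as 432 genes (2.17%) of its untreated array lay at least 2-fold from both other untreated arrays, against 0 genes for replicates 2 and 3. Arrays of replicate 1 correlated at 0.977 to 0.984 with those of replicates 2 and 3, which correlated at 0.996 to 0.999 with each other. At 2 h, 515 genes set replicate 1 apart in this way. Only Smad7 set replicate 3 apart, and 8 genes replicate 2, namely Ddit4, Efna1, Gm10785, Id1, Id3, Pck1, Sox9 and Tcim.

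Across the transcriptome the differences at 2 h were small. The median absolute difference over all genes was 0.06 and its 99th percentile 0.34. No gene passed an adjusted p of 0.05 (limma, replicate number as a factor, lowest adjusted p = 0.132), which makes 0% of the genes tested, and the same count at an adjusted p of 0.01 with a 2-fold change was also 0. At an unadjusted p of 0.05, 1263 genes passed, 6.33% of all, with 471 higher at 2 h (2.36%) and 792 lower (3.97%). At an unadjusted p of 0.01, 398 genes passed (2%), and at 0.001, 76 genes were lower (0.381%) and 11 higher (0.0552%). Only Pmepa1, Ccn2 and Smad7 had a mean difference of at least 2-fold (0.015% of all genes), all upward, and no gene was lower by that much. With a trended and robust prior in limma 9 genes passed, of which Klhl24, Lepr, Rassf4, Egr1 and Cd14 are described below. In the model used here the single genes below did not pass the test across all genes. With 3 arrays against 3, an exact permutation test of a single gene cannot go below a p of 0.1, and sign changes over 3 pairs cannot go below 0.25, so no such test was used.

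The 3 replicates shared little of the 2 h change. Across all genes, which are not independent replicates, the differences of replicates 1 and 2 correlated at -0.14, those of replicates 1 and 3 at 0.21 and those of replicates 2 and 3 at 0.01. A gene was higher in 3 of 3 pairs in 2244 cases (11.3%) and lower in 3 of 3 in 2261 (11.3%). The SD of the differences over genes was 0.19, 0.17 and 0.16 in replicates 1, 2 and 3, so the differences were of similar size overall and lay in different genes. In replicate 3, 16 genes were at least 2-fold higher at 2 h and 3 at least 2-fold lower, compared with 5 and 3 in replicate 2 and 1 and 4 in replicate 1.

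**Figure D1:**
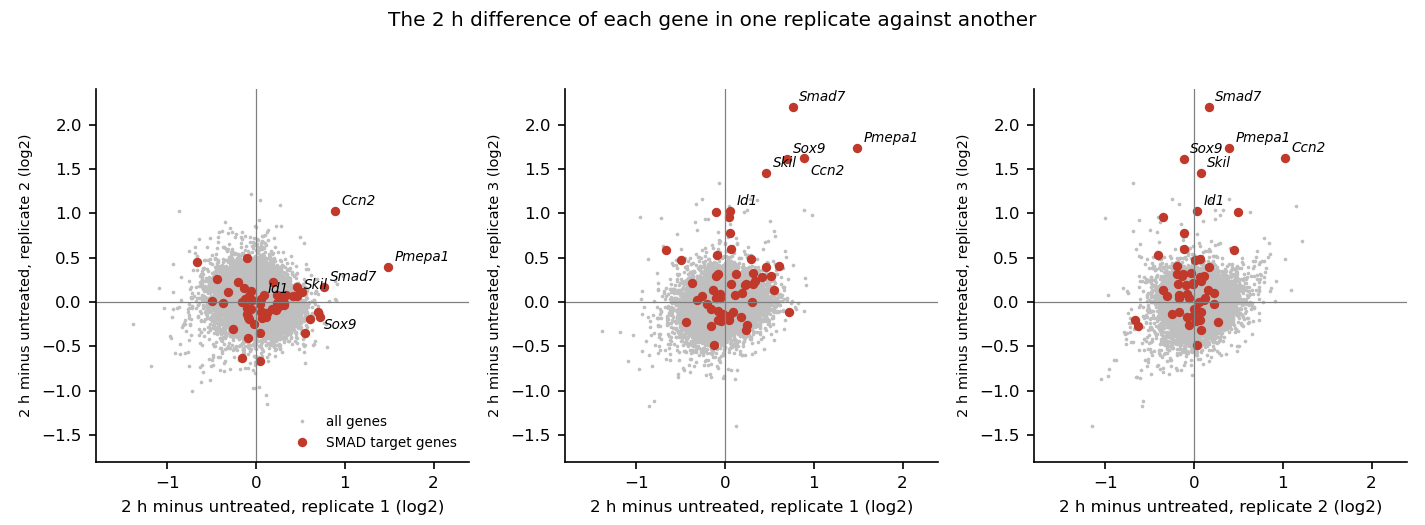
Difference between 2 h and untreated (log2) of each gene in one replicate against the same gene in another, for the 3 pairs of replicates; grey points are all 19938 genes and red points 55 SMAD target genes. The grey clouds have no common direction, and Smad7, Pmepa1, Sox9 and Skil lie far up in replicate 3 and lower in replicate 2.

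The SMAD target genes were read from 4 lists, with 55 of 57 genes measured. None passed an adjusted p of 0.05. At an unadjusted p of 0.05, 10 of the 55 were higher at 2 h (2.36% of all genes) and 1 was lower (3.97%). The groups did not overlap for 6 of the 55, with 2 h above untreated in 5 (3.11% of all genes) and below in 1 (2.54%). Their median difference was 0.03, beside 0.01 over all genes. The replicates had median differences of 0.06, -0.01 and 0.19 in the order 1 to 3. In that order 8, 1 and 12 of the 55 were higher by more than 0.5 (0.662%, 0.712% and 0.441% of all genes). Lower by more than 0.5 were 2, 2 and 0 of the 55, and 226, 97 and 112 of all 19938 genes. The differences of the 55 genes correlated (Pearson) at 0.52 between replicates 1 and 3, at 0.37 between 2 and 3 and at 0.19 between 1 and 2. By rank (Spearman) these values were 0.35, 0.13 and 0.05. In the same order the sign was shared by 61.8%, 47.3% and 45.5% of the 55, beside 55.8%, 45.1% and 44.3% of all genes.

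The feedback inhibitors and corepressors held the clearest upward values, with a median difference of 0.17. Of 14 genes, 6 were higher at an unadjusted p of 0.05 (2.36% of all genes). The same number was higher in 3 of 3 pairs (11.3%). Pmepa1, a membrane protein that holds receptor-activated SMADs away from the receptor, read 7.62, 7.81 and 7.79 on untreated arrays 1 to 3 and 9.12, 8.20 and 9.52 on the 2 h arrays. All 2 h arrays lay above all untreated arrays, with replicate 2 lowest. The difference was 1.21 ± 0.23 (SE), or 2.31-fold, at an adjusted p of 0.155 by limma. Smad7, the main inhibitory SMAD of the TGF-β branch, read 7.93, 7.78 and 7.80 untreated and 8.69, 7.94 and 9.99 at 2 h. The groups did not overlap, but 2 h array 2 lay barely above the highest untreated array, whereas array 3 was the highest of all 12 arrays. Its model estimate was 1.04 ± 0.34 (adjusted p = 0.521).

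Skil, a corepressor that binds the SMAD complex, stood at 9.46, 9.01 and 9.04 untreated and at 9.92, 9.08 and 10.49 at 2 h. Here the groups overlapped, because 2 h array 2 lay below untreated array 1. The difference within pairs was positive in all, at 0.66 ± 0.28 (adjusted p = 0.746). Smad6 had untreated values of 6.67, 6.60 and 6.53 and 2 h values of 6.96, 6.66 and 7.02. Replicate 2 again hardly differed, and the estimate was 0.28 ± 0.08 (adjusted p = 0.442). Spsb1, an adaptor of a ubiquitin ligase that acts on TGFBR2, read 8.75, 8.87 and 8.93 untreated and 9.27, 8.99 and 9.22 at 2 h, without overlap, a difference of 0.31 ± 0.13 (adjusted p = 0.751). The corepressor Ski was the sixth of these genes, with 0.19, 0.23 and 0.10 in replicates 1, 2 and 3, and the only one of them in which replicate 2 was highest. The remaining 8 genes of the list, among them the activin antagonist Fstl3 at 0.20 and the corepressor Tgif1 at 0.17, had differences between -0.03 and 0.20.

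**Figure D2:**
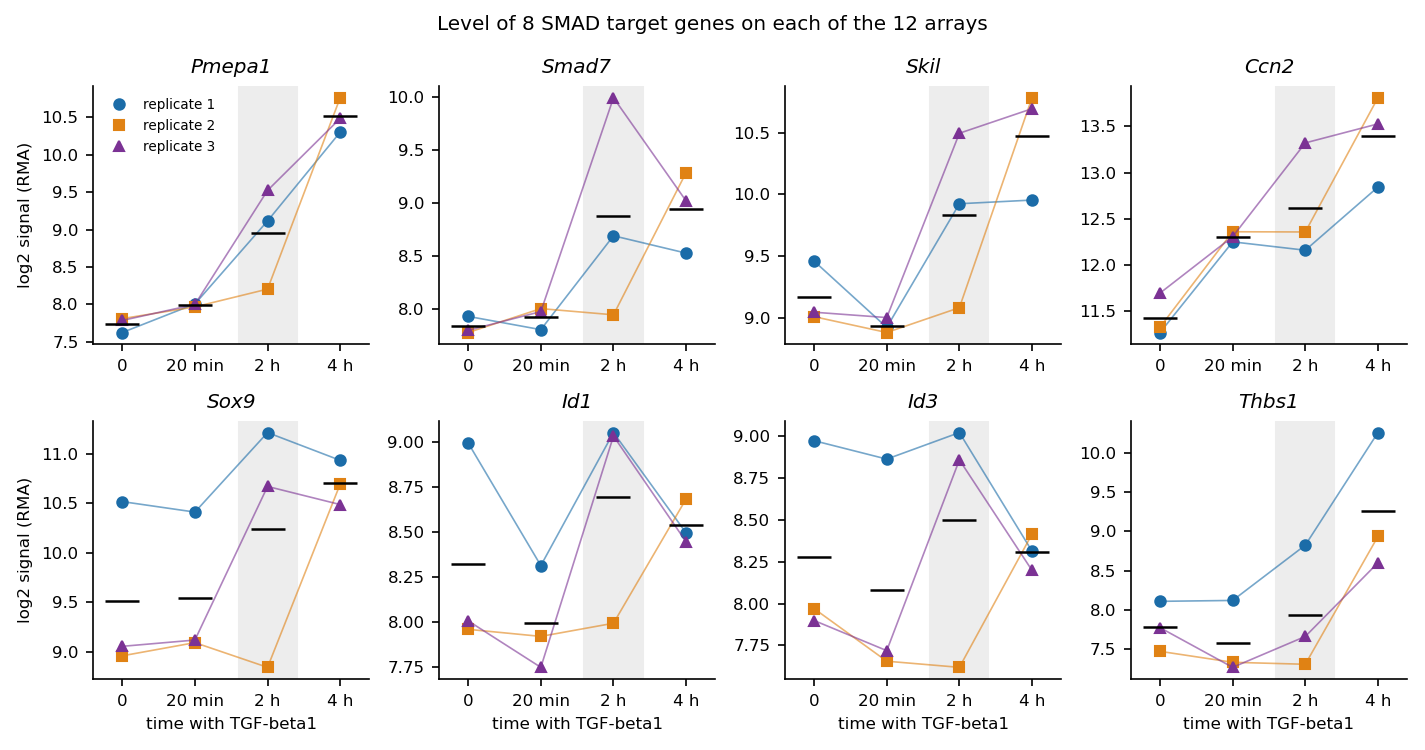
Log2 signal of 8 SMAD target genes on all 12 arrays by time with TGF-β1; colour and shape give the replicate number, lines join arrays of 1 number, black bars are the mean of 3 arrays and grey marks 2 h. At 2 h replicate 2 is the lowest point for all of these genes but Ccn2, and at 4 h it is the highest for Pmepa1, Smad7, Skil, Ccn2, Id1 and Id3.

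Among the 16 SMAD target transcription factors, 2 were higher at an unadjusted p of 0.05 (2.36% of all genes) and none was lower (3.97%). The replicate medians were 0.01, -0.12 and 0.24. Sox9, a factor of bile duct cells and of injured hepatocytes, read 10.52, 8.96 and 9.05 untreated and 11.21, 8.84 and 10.67 at 2 h. Untreated, replicate 1 stood well above the others. Replicate 3 was higher by 1.61 at 2 h and replicate 2 lower by 0.12 (a difference of -0.12), giving 0.73 ± 0.34 (adjusted p = 0.808). Id1, which like Id3 blocks basic helix-loop-helix factors and answers to bone morphogenetic proteins, went from 8.99, 7.96 and 8.01 to 9.05, 7.99 and 9.03, so that replicate 3 alone differed, at a 2 h level that replicate 1 already held untreated. Id3, whose promoter is printed above, showed the same picture with 8.97, 7.97 and 7.90 untreated and 9.02, 7.62 and 8.86 at 2 h. The differences were 0.37 ± 0.24 for Id1 and 0.22 ± 0.27 for Id3 (adjusted p = 0.928 and 0.986).

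The 2 factors past the unadjusted threshold had smaller and more even differences. Snai2, a repressor of epithelial genes, read 8.14, 7.71 and 7.81 untreated and 8.60, 7.87 and 8.21 at 2 h, higher in 3 of 3 pairs (0.34 ± 0.09, adjusted p = 0.396). Runx1, a runt-domain factor, was higher by 0.42, 0.07 and 0.28 (0.25 ± 0.09, adjusted p = 0.592). Bhlhe40, a repressor tied to the clock, went from 11.23, 10.60 and 10.49 to 11.28, 10.49 and 11.27, a difference of 0.78 in replicate 3, 0.05 in replicate 1 and -0.12 in replicate 2. Atf3, a stress factor, had the largest downward difference of the list, from 12.70, 11.74 and 11.72 to 12.74, 11.07 and 11.51, with the lowest 2 h value in replicate 2 and none of the difference in replicate 1 (-0.28 ± 0.14, adjusted p = 0.832).

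**Figure D3:**
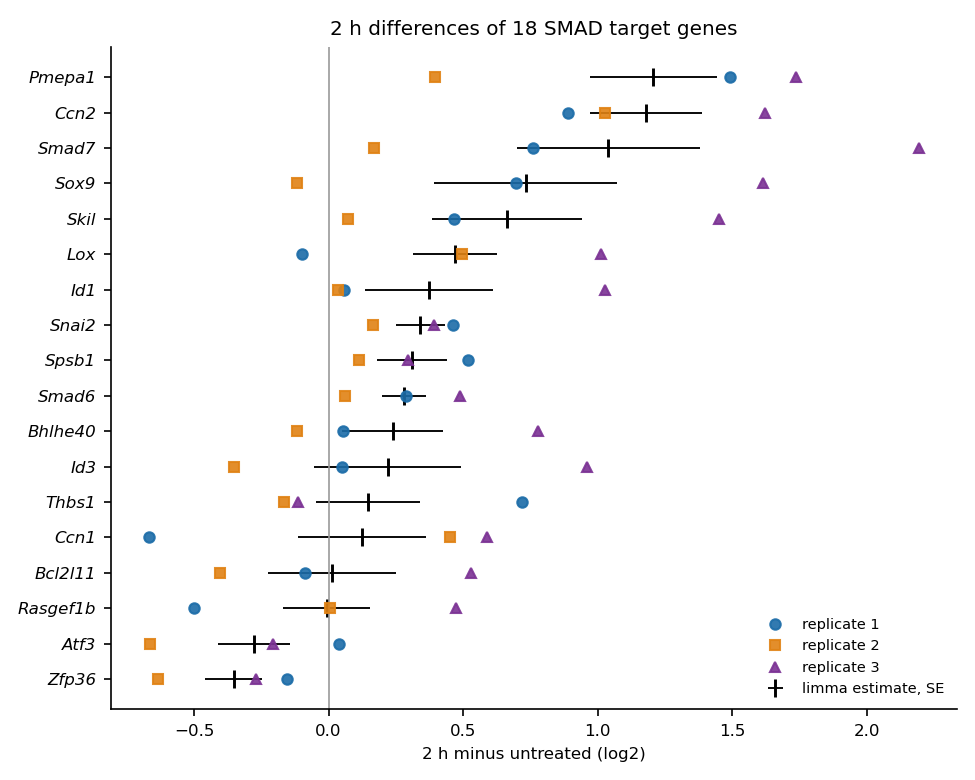
Difference between 2 h and untreated (log2) of 18 SMAD target genes, the 12 with the largest estimate joined with the 12 with the widest spread; points are the 3 replicates, black bars the limma estimate with its SE. Replicate 3 lies rightmost for 13 of the 18 genes and replicate 2 leftmost for 14. The 18 were chosen by these same differences, so these 2 counts cannot be set against all genes. Over all 55 measured targets the counts were 24 (21.6% of all genes) and 32 (32%).

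Matrix and secreted targets split into Ccn2 and the rest. Ccn2, the connective tissue growth factor of scar-forming cells, read 11.27, 11.33 and 11.70 untreated and 12.16, 12.36 and 13.32 at 2 h. The groups did not overlap, and the pairs differed by 0.89, 1.03 and 1.62, at 1.18 ± 0.21 or 2.26-fold (adjusted p = 0.140). It already stood at 12.25, 12.36 and 12.31 at 20 min, so that in replicates 1 and 2 the 2 h level was no higher than the 20 min level. Ccn1, its relative, was lower in replicate 1 and higher in the others, from 11.73, 10.93 and 11.26 to 11.06, 11.38 and 11.85 (0.12 ± 0.24, adjusted p = 0.994). Lox, which crosslinks collagen, went from 10.38, 9.15 and 8.73 to 10.28, 9.65 and 9.74, higher in replicates 2 and 3 only (0.47 ± 0.16, adjusted p = 0.538). Thbs1, a matrix protein that activates latent TGF-β, was higher in replicate 1 only, with 8.11, 7.47 and 7.77 untreated and 8.82, 7.30 and 7.66 at 2 h (0.15 ± 0.19, adjusted p = 0.988). In all, 2 of 14 genes of this list were higher at an unadjusted p of 0.05 (2.36% of all genes) and none was lower (3.97%). The median was 0.02.

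Of the 11 cell cycle and survival targets, none was higher at an unadjusted p of 0.05 (2.36% of all genes) and 1 was lower (3.97%). That gene, Zfp36, whose protein speeds the decay of AU-rich mRNAs, read 11.61, 11.17 and 11.19 untreated and 11.45, 10.53 and 10.92 at 2 h (-0.35 ± 0.11, adjusted p = 0.443). Bcl2l11, the pro-apoptotic BIM, differed in both directions, from 8.88, 8.93 and 9.12 to 8.79, 8.53 and 9.65, and ended with a mean difference of 0.01. Rasgef1b, an exchange factor for small G proteins, went from 9.01, 8.23 and 8.15 to 8.51, 8.24 and 8.62, which brought the 3 arrays closer together than they had been untreated. Tgfbr1, the type I receptor, was higher by 0.34, 0.08 and 0.24, and Sphk1, which makes sphingosine 1-phosphate, by 0.61 and 0.41 in replicates 1 and 3 but not in replicate 2, at -0.19. Gadd45b, a stress-induced survival gene, differed by 0.06, -0.11 and 0.60. Upstream of the SMADs, 2 of 19 receptor and SMAD genes were lower at an unadjusted p of 0.05 (3.97% of all genes) and none was higher (2.36%). The 2 were the co-receptor Tgfbr3 at -0.35 and Tgfbr2 at -0.18, both most so in replicate 3.

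The spread of these genes was measured as the SD of the 3 paired differences. Its median over the 55 SMAD targets was 0.21, beside 0.13 over all genes, and 22 of the 55 lay above its 90th percentile, which 10% of all genes exceed by construction and 14.3% of those at or above the median signal. Smad7 had the second widest SD of all genes at 1.04, Sox9 the sixth at 0.87, Pmepa1 the 14th and Skil the 15th, both at 0.71. Smad7 and Skil had both a high mean and a wide spread, whereas Ccn1, Bcl2l11 and Rasgef1b had a wide spread around a mean near 0. The order of the replicates was uneven. The largest difference fell in replicate 3 for 24 of the 55 genes (21.6% of all genes), in replicate 1 for 20 (38%) and in replicate 2 for 11 (40.4%), and the smallest fell in replicate 2 for 32 (32%). The order 3 above 1 above 2 held for 18 of the 55 and for 11.5% of all genes.

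The width was not a property of the 2 h differences of SMAD targets alone. At 4 h the median SD of their paired differences was 0.21 too, beside 0.12 over all genes, and at 20 min it was 0.15 beside 0.12. The 2 h arrays were further apart than the untreated arrays for 37 of the 55 genes, and for 13059 of all 19938. Leaving out replicate 3 lowered the number of SMAD targets above the 90th percentile from 22 to 12. Without replicate 3, 3 rather than 10 SMAD targets were higher at an unadjusted p of 0.05 (limma), and 346 rather than 471 of all 19938 genes. Leaving out replicate 1 gave 8 SMAD targets (832 of all genes), and leaving out replicate 2 gave 15 (570). Without 2 h array 2 the number was 20 (564 of all genes). Pmepa1 then reached an adjusted p of 0.000544 at 1.63 (limma), but the array left out was its lowest at 2 h.

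In several SMAD targets replicates 2 and 3 lay close together untreated and apart at 2 h. For Smad7, Skil, Sox9, Id1, Id3 and Pmepa1, 6 genes picked for this after their values were seen, untreated arrays 2 and 3 lay within 0.096 of each other, and the 20 min arrays within 0.172. Arrays 2 and 3 at 2 h were between 1.04 and 2.05 apart. Other SMAD targets did not share this, as untreated arrays 2 and 3 already read 9.15 and 8.73 for Lox, 11.33 and 11.70 for Ccn2 and 10.93 and 11.26 for Ccn1, and for Sox9, Id1 and Id3 the 2 h arrays of replicates 1 and 2 were further apart than those of 2 and 3. At 4 h replicate 2 stood at 9.28 for Smad7, 10.78 for Skil, 10.69 for Sox9 and 10.76 for Pmepa1, and replicate 3 at 9.02, 10.69, 10.49 and 10.48. In these 4 genes replicate 2 was below replicate 3 at 2 h and above it at 4 h. The comparisons at 20 min, 2 h and 4 h share the untreated arrays.

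For each direction 10 genes were taken by size among those with an unadjusted p under 0.05, the same sign in 3 of 3 pairs and at least the median signal. The upward ones were Pmepa1, Ccn2, Smad7 and Skil together with Flnc, Lnx2, 4833422C13Rik, Il22ra1, Cemip2 and Zcchc10, with adjusted p from 0.140 to 0.746. Replicate 3 was highest in 8 of the 10, a count that cannot be set against all genes, because the same differences chose these genes. Lnx2 read 8.86, 9.12 and 9.25 untreated and 9.84, 9.41 and 10.23 at 2 h, with no overlap (0.75 ± 0.17, adjusted p = 0.225). 4833422C13Rik, a long non-coding RNA, followed the same pattern with 9.42, 9.94 and 10.05 against 10.31, 10.18 and 11.08 (0.72 ± 0.16, adjusted p = 0.212). In both, as in Pmepa1, the difference was smallest in replicate 2. Il22ra1 went from 7.84, 7.78 and 7.92 to 8.05, 8.40 and 8.93, also without overlap (0.62 ± 0.16, adjusted p = 0.395).

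Flnc, filamin C, an actin crosslinker, had another order, with 7.62, 7.68 and 7.99 untreated and 7.67, 8.84 and 9.07 at 2 h, so that replicate 1 showed hardly any difference (0.76 ± 0.23, adjusted p = 0.443). Like Ccn2 it already stood at 8.48, 8.61 and 8.60 at 20 min. Cemip2, a cell surface hyaluronidase, and Zcchc10, a zinc finger gene, were highest in replicate 3, at 1.16 and 1.15, with 0.28 and 0.39 for Cemip2 and 0.36 and 0.18 for Zcchc10 in replicates 1 and 2. At 4 h, against the same untreated arrays that chose these genes, the 10 differences ran from 0.95 for Cemip2 to 2.78 for Pmepa1, with 1.11 for Smad7.

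The 10 downward genes were Rgs2, Lepr, Rassf4, Cxcl13, Depp1, Klhl24, Snora20, Mindy2, Crebrf and Ddit3, none of them in the SMAD lists. The SD of their paired differences ran from 0.15 for Cxcl13 to 0.64 for Mindy2, and that of the 10 upward genes from 0.39 for Ccn2 to 1.04 for Smad7. Klhl24, a ubiquitin ligase adaptor, had the lowest p of all genes, with 10.91, 10.33 and 10.12 untreated and 10.39, 9.45 and 9.47 at 2 h, lower in every pair (-0.68 ± 0.09, adjusted p = 0.132). Lepr, the leptin receptor, differed within pairs by -0.80, -0.58 and -1.11, from 8.76, 9.61 and 9.59 to 7.96, 9.04 and 8.47 (-0.83 ± 0.14, adjusted p = 0.132). Rgs2, which shuts off Gq signaling, had the largest difference, from 11.42, 10.56 and 10.44 to 10.56, 9.98 and 9.27 (-0.87 ± 0.21, adjusted p = 0.321). Replicate 1 began higher than the others for Rgs2 and Klhl24 and lower for Lepr. The difference was largest in replicate 3 for Rgs2 and Lepr and in replicate 2 for Klhl24.

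Rassf4, a member of the RAS association domain family, stood at 10.35, 9.45 and 9.01 untreated and at 9.16, 8.73 and 8.67 at 2 h (-0.75 ± 0.12, adjusted p = 0.132). Depp1, a FoxO-induced regulator of autophagy, stood at 10.64, 10.35 and 10.25 and then at 9.68, 9.97 and 9.49, without overlap (-0.70 ± 0.13, adjusted p = 0.140). Rassf4 differed most in replicate 1, by -1.19, and least in replicate 3, by -0.34. The B cell chemokine Cxcl13 stood at -0.73 at 2 h. Crebrf, which restrains a factor of the unfolded protein response, was at -0.64, the deubiquitinase Mindy2 at -0.65 with -1.39 in replicate 1 alone, and the small nucleolar RNA Snora20 at -0.67. Ddit3, a factor of the stress response described below, had -0.01, -0.97 and -0.84 in replicates 1, 2 and 3. The differences at 20 min and at 4 h were taken from the same untreated arrays that chose these genes, and so are given as values without a count. At 20 min they ran from -0.68 for Crebrf to 0.13 for Cxcl13, with -0.64 for Klhl24, -0.59 for Lepr and -0.25 for Rgs2. At 4 h they ran from -1.70 for Rgs2 to -0.74 for Mindy2.

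**Figure D4:**
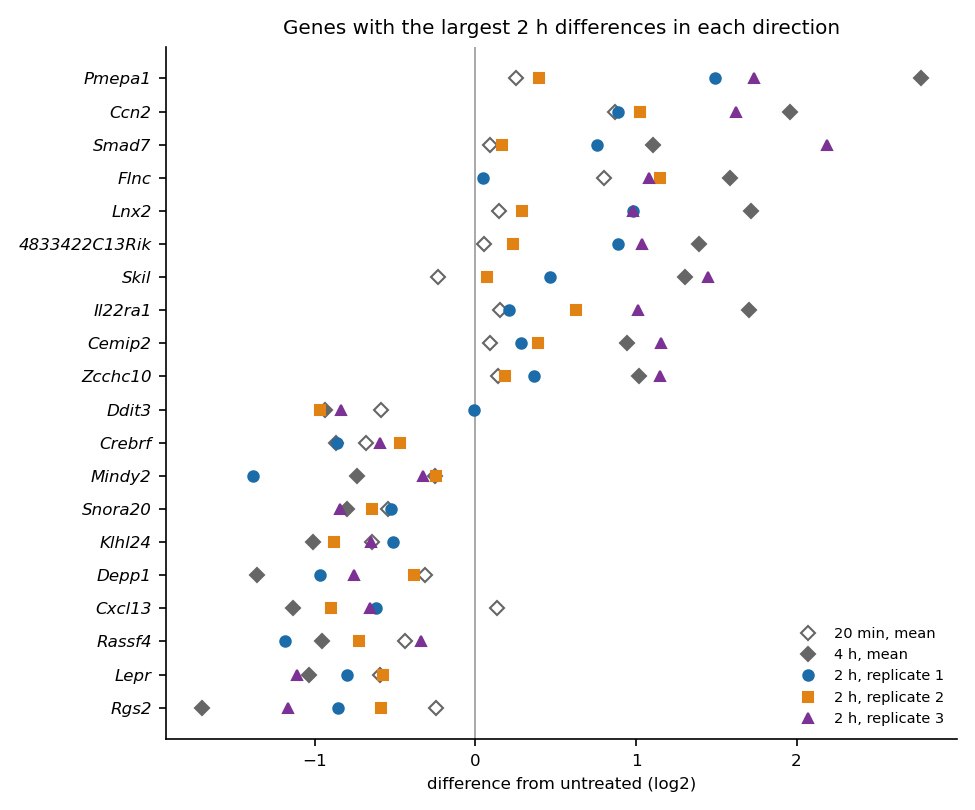
Difference from untreated (log2) of the 10 upward and 10 downward genes; coloured points are the 3 replicates at 2 h, open diamonds the mean at 20 min and filled diamonds the mean at 4 h, all against the same untreated arrays. For most downward genes the open diamond lies among the 2 h points, and for most upward genes it lies near 0, with the filled diamond to the right of it.

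Genes with the widest spread at or above the median signal included 8 outside the SMAD lists, with opposite signs between replicates. Tcim, a small regulator of transcription, read 10.01, 8.52 and 8.21 untreated and 9.94, 7.83 and 9.55 at 2 h. Ddit4, an inhibitor of mTORC1 that answers to stress, read 9.31, 9.29 and 9.01 and then 9.86, 8.60 and 9.81. Pck1, the rate-limiting enzyme of gluconeogenesis, read 11.66, 9.01 and 8.76 and then 11.69, 8.39 and 9.68. In each of these 3, replicate 3 was higher and replicate 2 lower, as with Id3. Atoh8, a bHLH factor, went from 8.32, 7.77 and 7.59 to 8.06, 7.53 and 8.75, higher in replicate 3 alone, and the non-coding Gm10785 read 9.53, 8.48 and 8.17 untreated and 8.81, 7.47 and 9.11 at 2 h. Col12a1, a fibril-associated collagen, and Anxa3, a calcium-dependent phospholipid binder, differed by -0.96 and -0.87 in replicate 1, by -0.41 and 1.02 in replicate 2 and by 0.96 and 0.48 in replicate 3. The mean difference lay between -0.26 and 0.22 for each of these 7 genes, and the other gene, Sdf2l1, belongs to the list described next.

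The endoplasmic reticulum (ER) stress and integrated stress response genes had the lowest median of all lists at -0.23, with 12 of 25 lower at an unadjusted p of 0.05 (3.97% of all genes) and none higher (2.36%). Here replicate 1 differed from the others, with a list median of -0.01 against -0.30 in replicate 2 and -0.30 in replicate 3. Ddit3, the pro-apoptotic factor CHOP, read 8.62, 8.84 and 8.88 untreated and 8.61, 7.87 and 8.04 at 2 h (-0.61 ± 0.14, adjusted p = 0.260). Sdf2l1, an ER chaperone cofactor, read 9.48, 10.40 and 10.44 and then 9.61, 9.26 and 9.04 (-0.81 ± 0.23, adjusted p = 0.420). Both were lower by about 1 unit in replicates 2 and 3 and not in replicate 1, where Sdf2l1 had been about 1 unit lower to begin with. The chaperone Hsp90b1, the disulfide isomerase Pdia4 and the degradation factor Sel1l differed by -0.01, -0.07 and -0.09 in replicate 1 and by between -0.41 and -0.72 in the others. The median of the list at 20 min, against the same untreated arrays, was -0.30. Without replicate 1, 41 genes passed an adjusted p of 0.05 over all genes (limma), among them Ddit3, Sdf2l1, Pdia4, Hsp90b1 and Sel1l, all lower, and Mcm6, Flnc, Lox and Dnajb4, all higher.

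**Figure D5:**
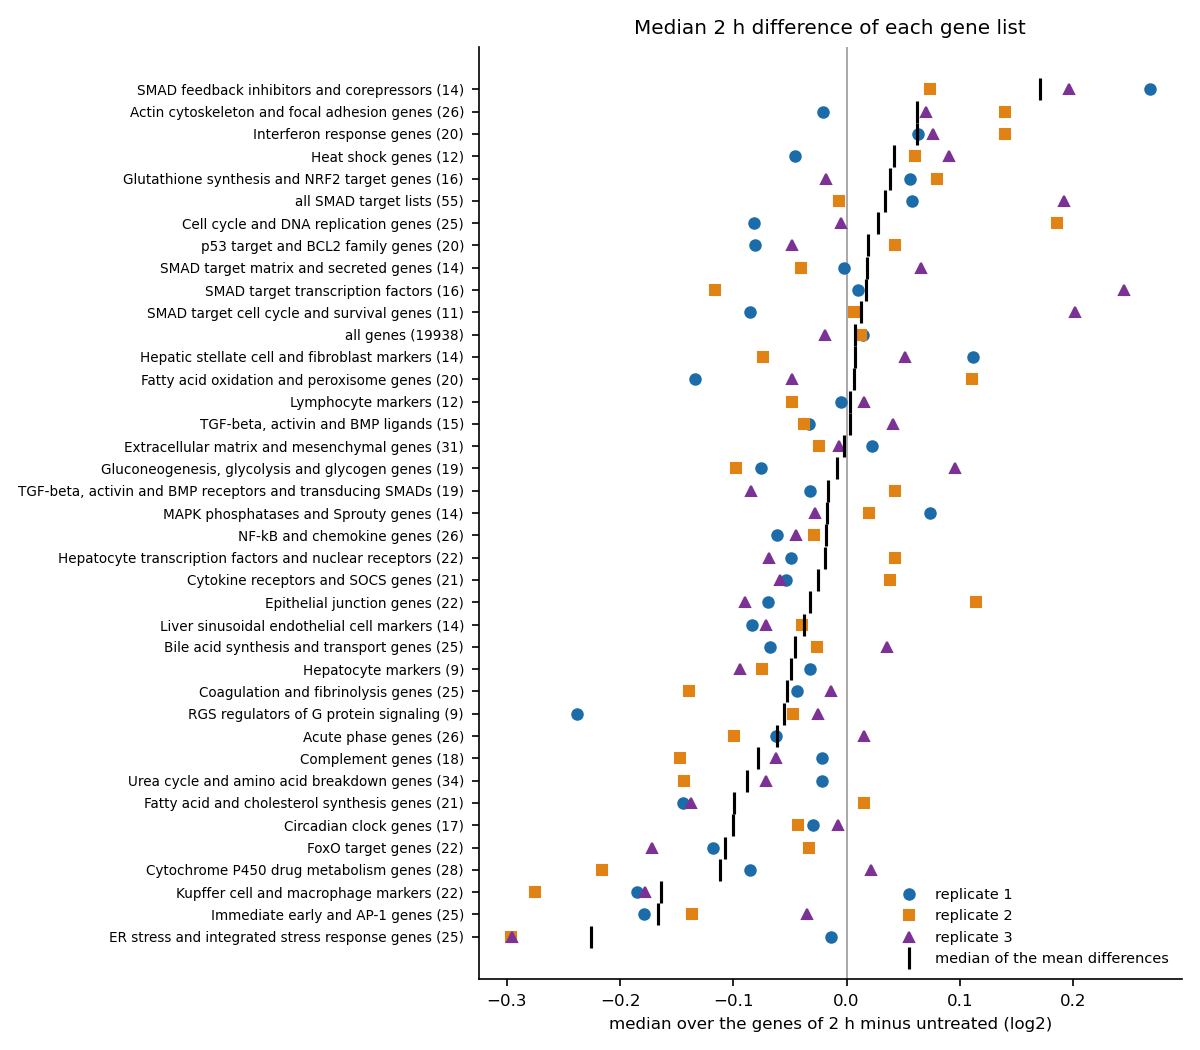
Median over the genes of each list of the difference between 2 h and untreated (log2), in each replicate (points) and for the mean of the replicates (bar), with the number of measured genes in brackets. The SMAD feedback inhibitors are at the top in the mean and the ER stress genes at the bottom, with replicate 1 near 0 for the latter.

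Macrophage markers were lower in all 3 pairs for 13 of 22 genes (11.3% of all genes), and 10 of 22 were lower at an unadjusted p of 0.05 (3.97%) with none higher (2.36%). The summed signal of the 22 genes ranged from 13.68 to 13.85 (log2) on the untreated arrays and from 13.51 to 13.58 at 2 h, without overlap. This sum was taken on the linear scale and weighs bright genes most. Cd14 had the highest untreated mean of the 22 at 12.72, beside a median of 7.22 over the list. Fcer1g, a signaling chain of Fc receptors, was lower by 0.76, 0.72 and 0.18, its partner Tyrobp by 0.48, 0.50 and 0.19, the growth factor receptor Csf1r by 0.26, 0.43 and 0.37 and the endotoxin co-receptor Cd14 by 0.28, 0.31 and 0.40. The defining markers Adgre1 and Clec4f had untreated means of 6.56 and 6.41, below the array medians of 7.17 to 7.28. The summed signal of 9 hepatocyte markers lay at 16.79 to 16.85 untreated and at 16.74 to 16.80 at 2 h. In a bulk sample, fewer cells of a type and less RNA per cell cannot be told apart, and whether macrophages had a part in the 2 h values of Cxcl13, Cd14 or the complement factor Cfp (-0.38) was not tested.

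Immediate early genes were lower at 2 h for 8 of 25 at an unadjusted p of 0.05 (3.97% of all genes) and higher for none (2.36%), with a median of -0.17. Egr1, a zinc finger factor induced within minutes of stimulation, differed by -0.37, -0.69 and -0.45, Ier2 by -0.54, -0.33 and -0.22, the antiproliferative gene Btg2 by -0.45, -0.14 and -0.39, and Egr2 by -0.61 and -0.49 with no difference in replicate 3. The JNK and p38 phosphatase gene Dusp8 was lower by 0.23, 0.31 and 0.38. The FoxO targets, which insulin signaling represses, had 6 of 22 lower (3.97% of all genes) and 1 higher (2.36%), so that the share on the higher side was near that of all genes. Next to Klhl24 and Depp1, the insulin-like growth factor binding protein Igfbp1 differed by -0.84, -0.28 and -0.37, and Foxo1 itself was at 0.19. In 11 of these 22 genes and in 14 of the 25 ER stress genes the spread lay above the 90th percentile, so that wide spread was not restricted to SMAD targets.

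In a few groups more genes passed upward than downward. Of 20 interferon response genes, 4 were higher at an unadjusted p of 0.05 (2.36% of all genes) and 7 in 3 of 3 pairs (11.3%), led by Ifit1 at 0.68, 0.26 and 0.50 and Ifit3 at 0.46, 0.32 and 0.32, with none lower. Of 25 cell cycle genes 3 were higher (2.36%) and 1 lower (3.97%), with a median of 0.03. The helicase subunit Mcm6 (-0.01, 0.84 and 0.67) and the cyclin Ccnd1 (0.10, 0.67 and 0.38) were higher mainly in replicates 2 and 3, and the inhibitor Cdkn1b was lower in all (-0.25). Gclc, which catalyses the first step of glutathione synthesis, was higher by 0.48, 0.22 and 0.37. It was the only 1 of 16 glutathione and NRF2 target genes past the unadjusted threshold (2.36% of all genes higher). The heat shock gene Dnajb4 was higher by 0.06, 0.69 and 0.46, as 1 of 2 past it among 12 (2.36%). The cytokine receptor and SOCS genes went both ways, with a median of -0.03. At that threshold 2 of 21 were higher (2.36% of all genes) and 4 lower (3.97%). Of these the cytokine signal inhibitor Socs2 was higher by 0.24, 0.32 and 1.04.

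Metabolic lists had medians near 0. Of 21 fatty acid and cholesterol synthesis genes 6 were lower at an unadjusted p of 0.05 (3.97% of all genes), such as Insig2, which retains the sterol sensor in the ER, at -0.36, and the acetyl-CoA carboxylase Acaca at -0.24. The liver glycogen synthase Gys2 was at -0.34. Cytochrome P450 genes were lower in 3 of 3 pairs for 10 of 28 and urea cycle and amino acid breakdown genes for 14 of 34 (11.3% of all genes). Of these lists 1 and 4 genes were lower at an unadjusted p of 0.05 (3.97% of all genes), and their medians were -0.11 and -0.09.

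Between the time points, the difference of 2 h from 20 min was tested directly and 0 genes passed an adjusted p of 0.05 (limma), with 1008 (5.06%) at an unadjusted p of 0.05. From 2 h to 4 h, 16 genes passed (0.0802%), 10 higher (0.0502%) and 6 lower (0.0301%) at 4 h. These calls rested on the replicate factor and on every replicate, since the count was 0 without that factor, 6 without replicate 1 and 0 without replicate 2 or 3. In the model with all arrays, Pmepa1 rose from the 2 h mean by a further 1.57 ± 0.23 (adjusted p = 0.0483) to 10.30, 10.76 and 10.48, Il22ra1 by 1.09 to 9.20, 9.92 and 9.54 (adjusted p = 0.0483), Thbs1 by 1.34 (adjusted p = 0.0425) and the actin-oxidizing enzyme Mical2 by 0.84 (adjusted p = 0.0349). Smad7 differed by 0.07 on average between 2 h and 4 h (adjusted p = 0.987), while its 4 h arrays at 8.52, 9.28 and 9.02 lay closer together than its 2 h arrays. Beside the 0 genes at 2 h, 966 genes (4.85%) differed between 4 h and untreated at an adjusted p of 0.05, and of the 55 SMAD targets 11 were higher (1.66% of all genes) and 3 lower (3.19%) then. Between 20 min and untreated, 0 genes passed an adjusted p of 0.05 (limma) and 1708 (8.57%) an unadjusted p of 0.05.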

How the data were processed

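RNA of 12 cultures had been hybridised to Affymetrix Mouse Gene 1.0 ST arrays, 3 per time point. Per the labels, the authors summarized them as log2 values by RMA (Affymetrix Power Tools); the versions are not given in the sources used here. RMA corrects for background, normalizes quantiles between arrays and summarizes each probe set, so a shift common to all genes would be removed. The study's methods describe another summarization (FARMS) and a batch adjustment (ComBat) for its own analysis. They report a strong batch effect among the mouse hepatocyte chips and the exclusion of 1 poor chip. That chip was replicate 1 at 1 h, a time not among these arrays. The labels give no batch, and whether replicate 1 was a batch was not tested. Arrays give no read depth, and their number limits the precision.

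Of 35556 probe sets, 21789 with exactly 1 gene symbol in the platform's annotation were tested. The other probe sets, 1621 naming more than 1 gene and 12146 without an entry, were not used. A gene was given by its probe set of highest mean signal (19938 genes). All 12 arrays were fitted in R 4.3.3 with limma 3.58.1, with terms for time and replicate (6 degrees of freedom left, and 5.39 for the prior) and Benjamini-Hochberg adjustment over the tested probe sets. On simulated data for 2 h minus untreated over 21789 genes, 98 of 100 changes of 0.75 and 100 of 100 changes of 1.5 (log2) were recovered and 14 unchanged genes were called. The simulation gave each changed gene the same change in every replicate and the same noise in every group. Changes that differ between replicates, as at 2 h, were not simulated, so it does not show how many of those would be called.

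The replicate factor follows the study's methods. Deviations from the group means of untreated and 2 h arrays with the same number correlated at 0.85, 0.60 and 0.64, which rests on replicate 1: untreated array 2 also correlated with 2 h array 3 at 0.70, untreated array 3 with 2 h array 2 at 0.72, and the difference between replicates 2 and 3 correlated at -0.24 between untreated and 2 h.

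Members, 39 gene lists and the rules for named genes were chosen with earlier results of these data known. The rules named the 12 SMAD targets with the largest difference and the 12 with the widest spread, 10 genes in each direction, the 10 widest spreads at or above the median signal, and up to 4 members of each other list with the lowest p; Efna1, Adgre1, Clec4f and Alb were named outside them. Promoters came from RefSeq (GRCm38.p6). Alternatives covered the replicate term, the 6 arrays alone, normalization, probe set filters, the variance prior, array weights and leaving out replicates or arrays.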

Additional observations from a re-analysis of the deposited data

Results flagged for a closer look

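Differences between time points under the same contrast marked 4 of the named genes. From 2 h to 4 h, Pmepa1 rose by 1.57, Thbs1 by 1.34, Il22ra1 by 1.09 and Mical2 by 0.84 (limma, adjusted p from 0.0349 to 0.0483). Thbs1 stood 0.15 from untreated at 2 h, whereas Pmepa1 and Il22ra1 stood at 1.21 and 0.62. These 4 calls depended on the replicate factor, since no gene passed from 2 h to 4 h without it. Groups of 3 arrays are too small for a test of single outlying arrays.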

How the results depend on the processing

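No gene passed an adjusted p of 0.05 at 2 h under most alternatives: without the replicate block (0), with it as a random effect, with the 6 compared arrays alone, with all probe sets, with the brighter part of the probe sets (median signal or more), after a second quantile normalization or centring, with array weights and with probe sets averaged. A trended and robust prior gave 9 genes, and leaving out replicates or single arrays gave 0 to 41 (41 without replicate 1, 3 without replicate 2, 7 without 2 h array 2, and 2 each without untreated array 1 or 2 h array 1). An unadjusted p of 0.01 gave 398 genes and one of 0.05 gave 1263. Without the replicate block, 147 genes were higher and 244 lower at an unadjusted p of 0.05, with 4 SMAD targets among the higher ones, and 0 genes differed between 2 h and 4 h. The pairing changed no call at an adjusted p of 0.05 between 2 h and untreated. Filtering to at least the median signal left 250 higher genes. Over the left-out replicates and arrays the higher genes numbered 346 to 832, the lower genes 369 to 1059, and the higher SMAD targets 3 to 20 (3 without replicate 3, 6 without untreated array 3 or 2 h array 1, 5 without 2 h array 3). SMAD targets with a spread above the 90th percentile numbered 12 to 22, genes between 2 h and 4 h 0 to 6 (0 without replicate 2 or 3), and genes between 20 min and 2 h 0 to 3.

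Genes with a mean near 0 and a wide spread changed sign when a replicate or array was left out. Their lowest and highest differences were -0.20 and 0.79 for Anxa3, -0.25 and 0.51 for Atoh8, -0.25 and 0.33 for Bcl2l11, -0.032 and 0.47 for Bhlhe40, -0.13 and 0.52 for Ccn1, -0.68 and 0.28 for Col12a1, -0.071 and 0.67 for Ddit4, -0.024 and 0.40 for Gadd45b, -0.86 and 0.11 for Gm10785, -0.15 and 0.56 for Id3, -0.29 and 0.48 for Pck1, -0.25 and 0.26 for Rasgef1b, -0.38 and 0.67 for Tcim and -0.14 and 0.35 for Thbs1. Array weights turned Col12a1 to 0.20, Gm10785 to 0.056 and Rasgef1b to 0.16, and a second quantile normalization turned Rasgef1b to 0.0082. The cause was not tested. With 3 arrays a group, low-signal genes and small differences cannot be resolved.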
